A study of Mus musculus with 2 samples.

Results

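The Ifitm genes are described here in live CD45+ cells sorted from B16 tumours of mice. The members were the 5 genes named Ifitm1, Ifitm2, Ifitm3, Ifitm6 and Ifitm10, taken by symbol from the deposited gene list, 5 of 31053 genes, a rule that uses no measured value, although the family was picked with earlier results of these data known. B16 is a mouse melanoma cell line, and CD45 is a surface protein of leucocytes. The WT mice were Mettl3 fl/fl Lyz2 +/+, in which both alleles of Mettl3 are floxed but Cre is absent. The KO mice were Mettl3 fl/fl Lyz2 cre/+. Both genotypes shared the floxed alleles, and the mice of both were 8 weeks old. Mettl3 encodes the enzyme that places N6-methyladenosine on RNA. Lyz2 is a lysozyme gene of macrophages, monocytes and granulocytes, so Cre acts mainly in those cells, in few dendritic cells and not in lymphocytes, and the KO mice keep 1 intact Lyz2 allele. There was 1 library per genotype, each made from several mice pooled. The spread between mice is therefore unknown, and the genotypes were not tested against each other. The 95% intervals given below are exact Poisson intervals for levels, exact Clopper-Pearson intervals for shares of cells and exact conditional binomial intervals for ratios. They cover counting error only, so a difference larger than they allow is one between 2 libraries and need not be one between genotypes.

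The Ifitm genes encode small membrane proteins, the interferon-induced transmembrane proteins. IFITM3 sits in endosomes and lysosomes, where it hinders the fusion of viral envelopes with the membrane of the cell, and IFITM1 acts more at the cell surface. Type I and type II interferons raise several members, and promoters of interferon-induced genes often hold ISRE and GAS motifs. Ifitm1, also named Fragilis2, and Ifitm3, named Fragilis, are known from germ cells as well, and Ifitm5 from bone-forming cells. Ifitm6 is known from myeloid cells, and little is known of Ifitm10.

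Ifitm1 (ENSMUSG00000025491), Ifitm2 (ENSMUSG00000060591), Ifitm3 (ENSMUSG00000025492) and Ifitm6 (ENSMUSG00000059108) lie within 63.1 kb on chromosome 7 of GRCm38. The gene models, all protein coding, were chr7:140954837-140955987 on the minus strand for Ifitm2, chr7:140967221-140969825 on the plus strand for Ifitm1, chr7:141009586-141010770 on the minus strand for Ifitm3 and chr7:141015699-141017924 on the minus strand for Ifitm6. Ifitm10 (ENSMUSG00000045777) was annotated at chr7:142325837-142373753 on the minus strand, 1.31 Mb away. All 5 members had a promoter among the RefSeq promoters of GRCm38.p6, each 250 bases before to 50 bases after a transcription start, and Ifitm10 had 3 of them. Both strands were searched for an ISRE core, GAAANNGAAA, and a GAS motif, TTCNNNGAA. The 4 promoters of the clustered genes are printed because the members differ in these interferon motifs, which are in capitals.
Ifitm3: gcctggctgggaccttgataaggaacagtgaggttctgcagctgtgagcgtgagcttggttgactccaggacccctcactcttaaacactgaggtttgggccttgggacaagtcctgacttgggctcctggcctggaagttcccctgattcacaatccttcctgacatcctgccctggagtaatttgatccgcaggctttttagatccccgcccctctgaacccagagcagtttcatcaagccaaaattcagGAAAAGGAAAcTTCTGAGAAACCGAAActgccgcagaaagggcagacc
Ifitm2: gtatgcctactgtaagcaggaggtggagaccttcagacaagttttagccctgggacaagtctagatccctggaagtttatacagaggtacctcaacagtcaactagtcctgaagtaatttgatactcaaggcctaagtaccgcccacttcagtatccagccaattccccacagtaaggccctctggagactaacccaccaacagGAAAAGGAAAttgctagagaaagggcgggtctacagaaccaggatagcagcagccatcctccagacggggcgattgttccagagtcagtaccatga
Ifitm6: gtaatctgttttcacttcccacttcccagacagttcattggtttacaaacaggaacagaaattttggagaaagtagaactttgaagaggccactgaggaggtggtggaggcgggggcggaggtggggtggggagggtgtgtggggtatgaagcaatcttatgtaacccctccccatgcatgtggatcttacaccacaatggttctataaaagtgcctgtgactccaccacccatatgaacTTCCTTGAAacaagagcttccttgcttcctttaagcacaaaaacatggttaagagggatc
Ifitm1: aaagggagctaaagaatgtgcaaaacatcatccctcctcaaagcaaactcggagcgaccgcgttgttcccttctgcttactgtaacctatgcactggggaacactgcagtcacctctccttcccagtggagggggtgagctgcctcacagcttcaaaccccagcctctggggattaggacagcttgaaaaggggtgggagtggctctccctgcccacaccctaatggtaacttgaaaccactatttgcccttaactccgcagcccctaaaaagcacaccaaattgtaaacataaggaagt

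The Ifitm3 promoter (chr7:141010695-141010994, minus strand) held 2 ISRE cores, at bases 3 to 12 and 20 to 29 from the start, and 1 GAS motif at bases 14 to 22 that overlaps the second of them. The Ifitm2 promoter (chr7:140955912-140956211, minus strand) held 1 ISRE core, 46 to 37 bases before the start, with the same letters, GAAAAGGAAA, as the first core of Ifitm3. The Ifitm6 promoter (chr7:141016843-141017142, minus strand) held 1 GAS motif, 10 to 2 bases before the start. The promoter of Ifitm1 (chr7:140967826-140968125, plus strand) and the 3 promoters of Ifitm10 held neither motif in these windows. The starts used for Ifitm1 and Ifitm6 lie well inside the longer gene models given above. Of 32851 mouse promoters of the same length, 3.44% held an ISRE core, 0.225% held 2 or more and 8.30% held a GAS motif. Among the antiviral genes described below, 12 of the 20 with a promoter held an ISRE core.

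Barcodes numbered 5895 labelled WT and 8446 labelled KO, with 45963969 and 54052317 unique molecular identifiers (UMIs, each standing for a single RNA molecule). After a filter on genes and mitochondrial UMIs and the removal of likely doublets, 5405 and 7625 cells remained, with medians of 4148 and 3567 UMIs, and 13 barcode sequences occurred in both libraries. Mettl3 was not lower in the library labelled KO. It had 190 UMIs in macrophage-like cells labelled WT and 200 in those labelled KO, 10.1 and 10.8 counts per 1000000 UMIs of the class (CPM), a log2 ratio of 0.09 (-0.20 to 0.39). Reads were counted from the 3' end, and which exons are floxed is not given in the sources used here, so whether these counts could show the deletion was not tested. The libraries are called by their labels throughout. Lyz2 was lower, at 6076 and 2742 CPM in macrophage-like cells, a log2 ratio of -1.15.

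Cells were placed in classes by the mean scaled log level of marker genes, none of them an Ifitm gene, with a minimum of marker UMIs, at thresholds chosen with the data in view. There were 11 classes with at least 50 cells in each library. Macrophage-like cells (C1qa, Apoe, Adgre1) numbered 1685 in the library labelled WT and 2185 in that labelled KO, monocyte-like cells (Ly6c2, Chil3, Vcan) 666 and 1833, and granulocyte-like cells (S100a8, S100a9, Retnlg) 526 and 229. Dendritic cells (DC) fell into conventional DC of type 1 (cDC1, with Xcr1 and Clec9a) and type 2 (cDC2, with Cd209a and Clec10a), mature DC (Ccr7, Fscn1) and plasmacytoid DC (Siglech). There were 178 and 216 cDC2-like cells, 113 and 88 cDC1-like, 107 and 150 mature DC-like, 72 and 82 plasmacytoid DC-like, 592 and 695 T-like, 61 and 136 NK-like and 112 and 81 B-like cells. A further 134 and 218 cells were melanoma-like (Pmel, Dct, Tyrp1) in spite of the sort for CD45. The gates left 578 and 1013 cells below every threshold, 207 and 386 between neighbouring gates and 337 and 263 with markers of several lineages. Of the cells between gates, 140 and 285 lay between macrophage-like and monocyte-like cells. All markers of each class reached 50 CPM in it, apart from the monocyte list, where 7 of 9 did.

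Each member had its own order of classes. Granulocyte-like cells held the highest levels of Ifitm1, Ifitm2 and Ifitm6, monocyte-like cells those of Ifitm3, and NK-like cells those of Ifitm10, in both libraries. For Ifitm6 the order of the first pair of classes turned in the library labelled WT when classes were taken from Leiden clusters. Levels compare cell classes for 1 gene and not genes with each other. The share of cells with a UMI depends on depth as well, so it is also given after each cell was thinned to 1000 UMIs, with shallower cells left out.

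**Figure D1:**
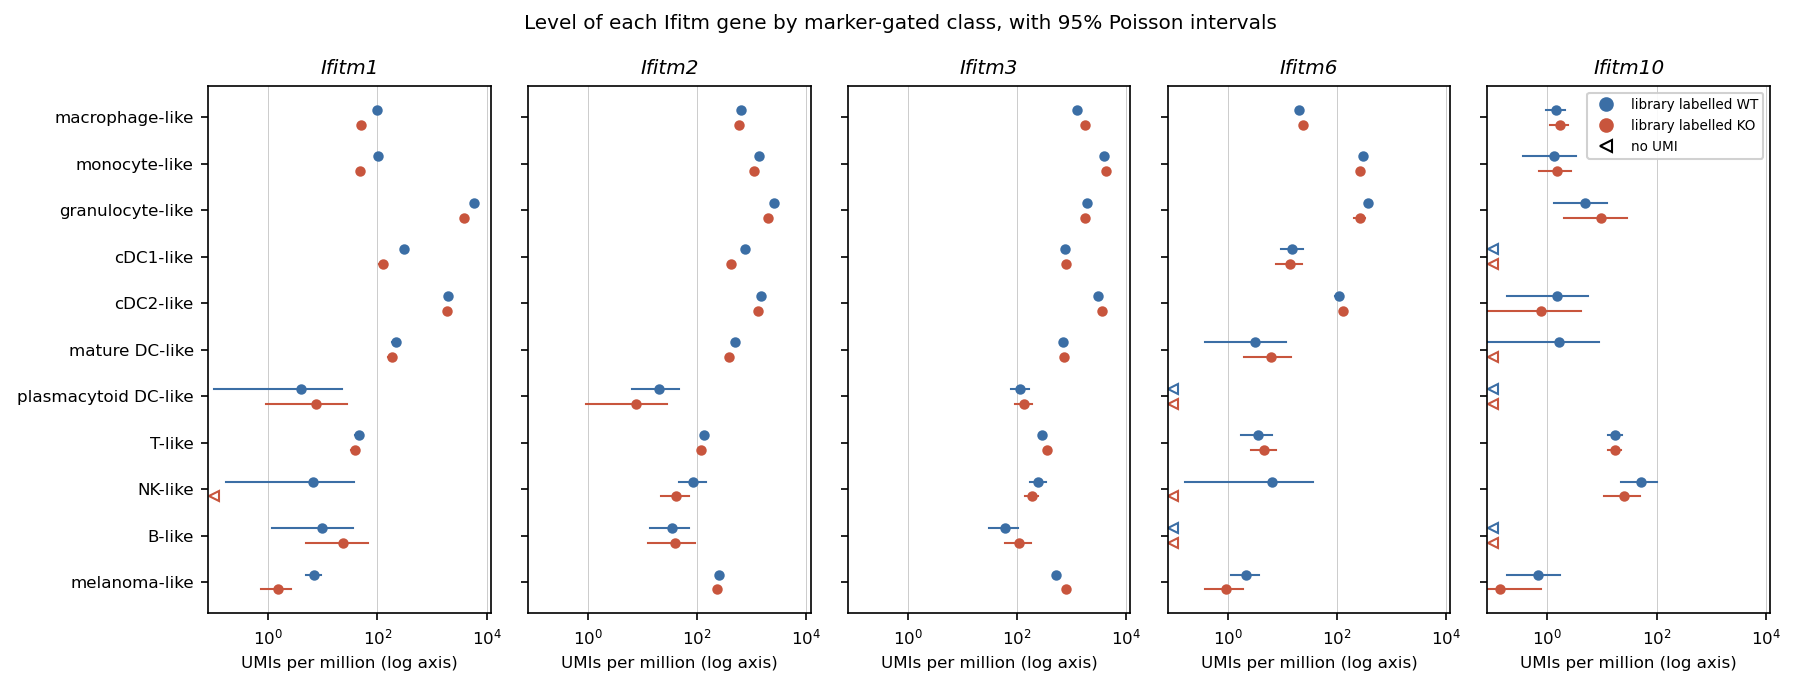
CPM, UMIs per 1000000 UMIs of the class (x axis, log scale) of each Ifitm gene in 11 cell classes (y axis) in the library labelled WT (blue) and the library labelled KO (red), with 95% Poisson intervals for counting error; open triangles at the left edge mark classes with no UMI. Ifitm1 ranges from 5961 in granulocyte-like cells labelled WT to no UMI in NK-like cells labelled KO, and Ifitm10 lies at 52.7 or less.

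Ifitm3, the best studied antiviral member, was highest in monocyte-like cells, at 3997 CPM (95% Poisson interval 3926 to 4069) labelled WT and 4214 (4166 to 4264) labelled KO. It followed in cDC2-like cells at 2989 and 3598. In granulocyte-like cells it stood at 1918 and 1734 and in macrophage-like cells at 1251 and 1788. The latter pair of classes changed places between libraries, and their intervals overlapped in the library labelled KO. Then came the cDC1-like (762 and 775), mature DC-like (697 and 735) and melanoma-like cells (510 and 790), followed by T-like cells (293 and 354). NK-like (244 and 185), plasmacytoid DC-like (116 and 134) and B-like cells (59.3 and 110) were lowest. Neighbours whose intervals overlapped in the library labelled WT were cDC1-like and mature DC-like cells, T-like and NK-like cells, and plasmacytoid DC-like and B-like cells. In the library labelled KO, melanoma-like, cDC1-like and mature DC-like cells overlapped, as did NK-like, plasmacytoid DC-like and B-like cells. After thinning, an Ifitm3 UMI was seen in 94.2% and 93.0% of monocyte-like cells and in 5.05% and 10.9% of B-like cells. The unthinned shares were 97.6% and 97.4% in monocyte-like cells at medians of 4027 and 3265 UMIs, and 10.7% and 16.0% in B-like cells at medians of 1523 and 1142 UMIs. A share at or below that of B-like cells was read as background. This rule takes the Ifitm UMIs of B-like cells to be free RNA, which was not tested.

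Ifitm1 was concentrated in granulocyte-like and cDC2-like cells. Its level was 5961 (5795 to 6131) and 3804 (3590 to 4028) CPM in the former and 1959 and 1890 in the latter. The next classes were far lower. In cDC1-like cells it was 306 and 129, in mature DC-like cells 218 and 185, in monocyte-like cells 104 and 49.1, and in macrophage-like cells 96.6 and 49.1. T-like cells had 46.8 and 39.2 CPM, and B-like, NK-like, plasmacytoid DC-like and melanoma-like cells held 41 Ifitm1 UMIs or fewer in each library. In the library labelled KO, the intervals of macrophage-like, monocyte-like and T-like cells overlapped, and mature DC-like cells stood above cDC1-like ones. Those of monocyte-like and macrophage-like cells overlapped in the other library as well. An Ifitm1 UMI was found in 85.6% and 77.3% of granulocyte-like cells (83.3% and 71.0% after thinning) at medians of 1328 and 1040 UMIs. It was found in 1.79% and 1.23% of B-like cells at medians of 1523 and 1142. Among cDC2-like cells the shares were 65.7% and 62.0%, or 42.1% and 43.2% after thinning. In classes taken from Leiden clusters, granulocyte-like cells labelled WT had 3230 CPM of Ifitm1 and cDC2-like cells 2051.

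Ifitm2 was high in most myeloid classes. Granulocyte-like cells had 2513 (2405 to 2624) and 1960 (1807 to 2123) CPM, cDC2-like cells 1454 and 1318, and monocyte-like cells 1365 and 1110. Below these stood cDC1-like cells (747 and 422), macrophage-like (634 and 573), mature DC-like (492 and 385) and melanoma-like cells (256 and 233). T-like cells had 135 and 118 CPM, and the 2 to 13 UMIs per library in NK-like, B-like and plasmacytoid DC-like cells gave levels of 85.6 or less. Plasmacytoid DC-like cells, at 19.99 and 7.64 CPM, lay below B-like cells, at 34.6 and 39.2, and were read as background. Intervals of neighbours overlapped for cDC2-like and monocyte-like cells labelled WT, for cDC1-like and mature DC-like cells labelled KO, for NK-like and B-like and for B-like and plasmacytoid DC-like cells in both libraries, and for T-like and NK-like cells labelled WT. Ifitm2 and Gm45717, a transcript model on the same strand, overlap, and 41.9% of the 50-base windows in the last 500 bases of Ifitm2 transcripts also occur in other gene models. The share was 14.0% for Ifitm3, 11.8% for Ifitm1, 1.52% for Ifitm10 and 0 of 458 windows for Ifitm6. Cell Ranger counts reads that map to a single gene. Whether those other models were among the genes used for counting was not tested, nor was any effect on the levels of Ifitm2.

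Ifitm6 was a gene of granulocyte-like and monocyte-like cells. Its levels were 371 (330 to 415) and 265 (211 to 329) CPM in the former and 298 and 263 in the latter, and the intervals of these classes overlapped in the library labelled KO. In classes taken from Leiden clusters, the levels labelled WT were 209 in granulocyte-like and 405 in monocyte-like cells. An Ifitm6 UMI was seen in 22.6% and 21.0% of granulocyte-like cells and in 56.6% and 50.9% of the deeper monocyte-like cells, or in 19.4% and 21.8% against 26.6% and 24.1% after thinning. The cDC2-like cells had 110 and 132, macrophage-like cells 19.98 and 24.2, and cDC1-like cells 15.3 and 13.9. No other class was above 6.58. Granulocyte-like cells with the granulocyte gene Retnlg had 464 and 305, and those without a Retnlg UMI had 168 and 185. Ifitm6 was among the 10 genes that led the monocyte-like class by fold over the other classes, and Ifitm1 among those of the cDC2-like class. No Ifitm6 UMI was seen in B-like cells, which at a floor of 3 counts allows a level of up to 14.8 CPM labelled WT and 23.5 labelled KO, or in plasmacytoid DC-like cells, where the floor is 11.997 and 11.5. The exact Poisson limits are wider, 18.2 and 28.9 in B-like and 14.8 and 14.1 in plasmacytoid DC-like cells.

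Ifitm10 was highest in lymphocytes. NK-like cells had 8 UMIs in each library (52.7 and 25.04 CPM), and T-like cells had 48 and 54 UMIs (17.3, 12.7 to 22.9, and 17.1, 12.8 to 22.2). The intervals of these classes overlapped in both libraries. Macrophage-like cells had 1.44 and 1.68 CPM, and B-like, cDC1-like and plasmacytoid DC-like cells had none. Ifitm5, a member known from bone, had 28 and 25 UMIs over all cells, of which 8 and 4 came from granulocyte-like cells, and its model overlaps Gm45717 as well. Ifitm7, which is annotated on chromosome 16, had 1 UMI in each library.

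The libraries were then compared over the member and class pairs. A pair is counted as higher or lower when its level differs more than 1.5-fold between the libraries and it has at least 20 UMIs over both. Of 55 pairs, 37 had enough UMIs, 2 were higher in the library labelled KO, 8 were lower and 27 lay within 1.5-fold. The interval of the log2 ratio lay above 0 in 6 pairs and below 0 in 15. The 2 higher pairs were both of Ifitm3, in melanoma-like cells and in B-like cells, whose share serves as background here. Of the 8 lower pairs 5 were of Ifitm1, in macrophage-like, monocyte-like, granulocyte-like, cDC1-like and melanoma-like cells. By that rule the melanoma-like pair lay at background, since after thinning 0.794% and 0% of those cells had an Ifitm1 UMI, against 1.01% and 1.82% of B-like cells. The others were Ifitm2 in cDC1-like and NK-like cells and Ifitm6 in melanoma-like cells.

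As background, genes that reached 50 CPM in at least 1 library were counted past the same fold in each class, with no minimum of UMIs. In macrophage-like cells 1.2% were higher in the library labelled KO and 0.319% lower. The shares were 3.66% and 0.302% in monocyte-like cells and 16.1% and 7.34% in granulocyte-like cells. In cDC1-like cells they were 4.4% and 1.8%, in cDC2-like cells 3.13% and 1.83%, in mature DC-like cells 5.33% and 3.65%, and in plasmacytoid DC-like cells 13.2% and 12%. T-like cells had 1.01% and 0.769%, NK-like cells 15.4% and 15.6%, B-like cells 23.8% and 15.7% and melanoma-like cells 1.53% and 2.11%. In the classes with few UMIs, a pair past 1.5-fold is therefore common, and this holds for Ifitm3 in B-like cells and Ifitm2 in NK-like cells. In macrophage-like, monocyte-like and cDC1-like cells few genes were lower past the fold, and Ifitm1 was among them. Of the members' pairs that reached 50 CPM, 30 in all, 2 were higher and 6 lower, and 1 more, Ifitm10 in NK-like cells at 52.7 and 25.04 CPM, was past the fold on fewer than 20 UMIs.

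**Figure D2:**
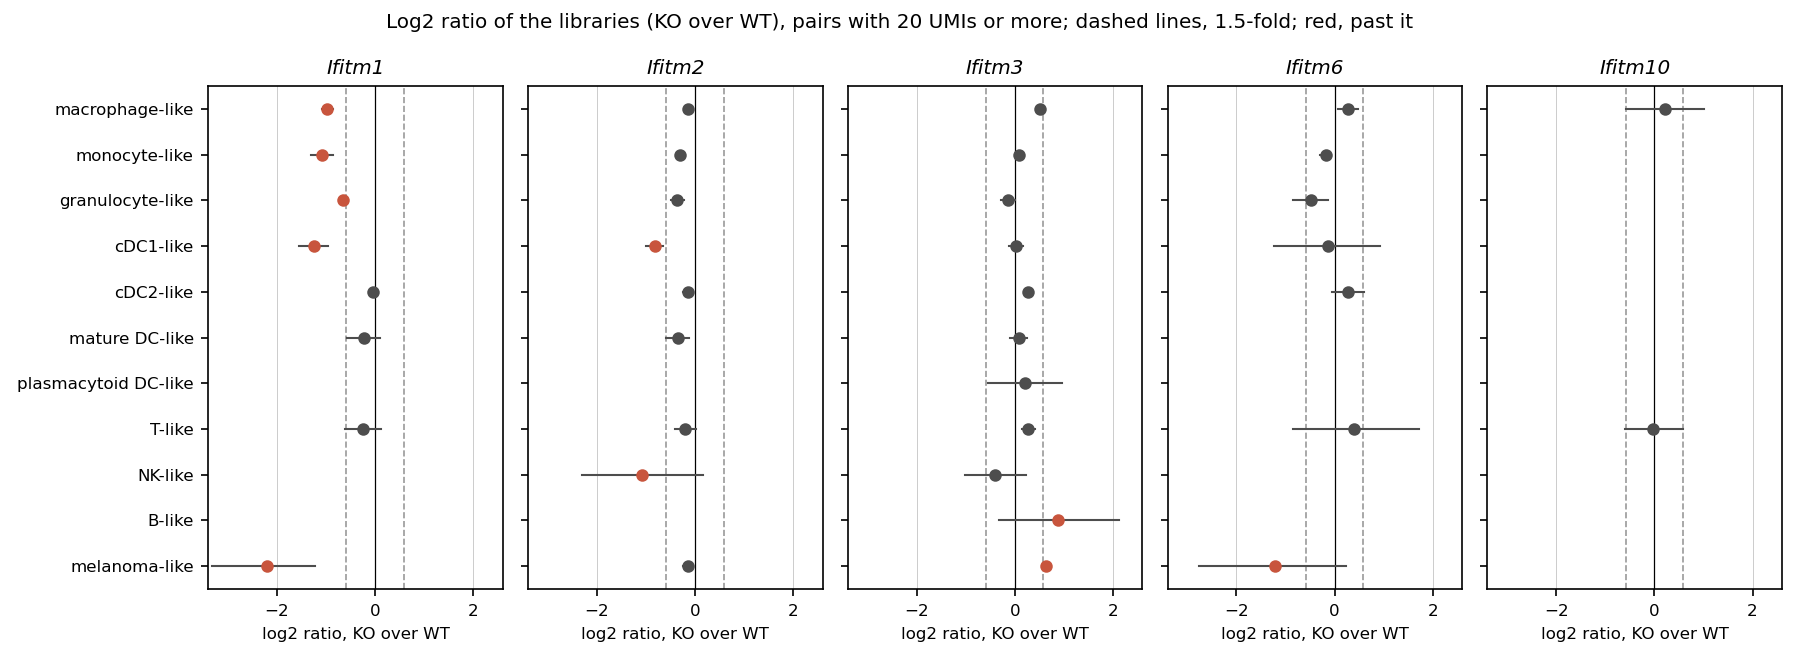
Log2 ratio of levels, library labelled KO over library labelled WT (x axis), of each Ifitm gene in each cell class (y axis) with 20 UMIs or more over both libraries; lines are 95% intervals for counting error, dashed lines mark 1.5-fold and red points lie past it. All 8 Ifitm1 points lie left of 0, while Ifitm3 points lie between -0.40 and 0.89.

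In macrophage-like cells, Ifitm3 was 1.43 times higher in the library labelled KO, at 1251 and 1788 CPM, a log2 ratio of 0.52 (0.49 to 0.54) that does not reach the fold of 1.5. The median of all genes in this class was 0.01. The difference was spread over the cells. Among cells with at least 2000 UMIs the median was 8.98 Ifitm3 UMIs per 10000 in the library labelled WT and 14.3 in that labelled KO, the lower quartile 3.66 and 5.80, and the upper quartile 19.0 and 29.4. The share of cells with an Ifitm3 UMI after thinning was 56.5% (54.0 to 59.0) and 66.5% (64.4 to 68.6). Macrophage-like cells with more than a single UMI of the division genes Mki67 and Top2a together had 758 and 1147 CPM, a log2 ratio of 0.60. Those with a single such UMI or none had 1558 and 2077, a log2 ratio of 0.41.

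In melanoma-like cells, Ifitm3 was 1.55 times higher, at 510 and 790 CPM, a log2 ratio of 0.63 (0.57 to 0.70) that was 0.52, within 1.5-fold, with doublets kept. The summed macrophage markers in those cells were 741 and 725 CPM and the summed monocyte markers 75.7 and 84.2. The median cell had 3.31 and 5.22 Ifitm3 UMIs per 10000. B16 is a line of its own, injected into the mice, and carries neither the floxed alleles nor Cre. Among T-like cells, Ifitm3 stood at 293 and 354, a log2 ratio of 0.28 (0.14 to 0.41). A few cells carried it, since 27 of 592 and 32 of 695 T-like cells held 76.1% and 75.9% of these UMIs. Cells with Cd4 UMIs had 300 and 610, a log2 ratio of 1.02 on 70 and 300 UMIs in 69 and 114 cells, 20 and 49 of them in 1 cell each, and cells with Cd8a or Cd8b1 UMIs had 255 and 256. The monocyte markers summed to 798 and 924 CPM in the CD4 cells and the macrophage markers to 686 and 627, and their part in the difference was not tested. In cDC2-like cells Ifitm3 was at 2989 and 3598 (0.27, 0.21 to 0.33).

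The other classes with many Ifitm3 UMIs differed less. In monocyte-like cells the log2 ratio was 0.08 (0.05 to 0.11), and the median cell had 39.99 and 40.5 UMIs per 10000. The cDC1-like and mature DC-like cells gave 0.03 and 0.08, with intervals that cover 0. Granulocyte-like cells alone had an interval below 0, at -0.15 (-0.29 to -0.00305), but in classes taken from Leiden clusters the ratio of these cells was 0.50. In B-like cells the 1.85-fold difference rested on 12 and 14 UMIs, and in NK-like cells 1 cell held 26 of 37 UMIs labelled WT and 1 cell 35 of 59 labelled KO.

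Ifitm1 was lower in the library labelled KO in most classes that held it. Granulocyte-like cells had 4868 UMIs (5961 CPM) and 1176 UMIs (3804 CPM), a log2 ratio of -0.65 (-0.74 to -0.56). The level was lower among cells with Retnlg UMIs (6231 and 4181, -0.58) and among those without (5369 and 3046, -0.82). The cells differed broadly, since 36.7% of these cells in the library labelled WT but 18.3% in that labelled KO held 10 or more Ifitm1 UMIs, and the top 1% of cells held 6.08% and 6.12% of them. Median depth was lower in the library labelled KO in these cells, 1040 against 1328 UMIs. Granulocyte-like cells were also a smaller share of the cells, 9.73% and 3.003%. In cDC2-like cells, the other class rich in Ifitm1, the levels were 1959 and 1890 (-0.05, -0.13 to 0.03), and the intervals overlapped. With classes taken from Leiden clusters, the log2 ratio of Ifitm1 was -0.33 in granulocyte-like, -0.37 in macrophage-like and -1.27 in monocyte-like cells, 0.094 in cDC1-like and 0.58 in T-like cells, -0.64 in mature DC-like and -1.70 in melanoma-like cells. The calls in granulocyte-like, macrophage-like and cDC1-like cells were thus lost and 1 in mature DC-like cells gained, where the ratio was -0.24 by marker gates and -0.97 with doublets kept.

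In macrophage-like cells Ifitm1 stood at 96.6 and 49.1 CPM, a log2 ratio of -0.97 (-1.09 to -0.86), but a small number of cells carried it. Cells with 10 or more Ifitm1 UMIs were 41 of 1685 (2.43%) in the library labelled WT and held 1352 of the 1808 UMIs. In the library labelled KO they were 20 of 2185 (0.915%) and held 550 of 908. An Ifitm1 UMI was seen in 15.3% and 8.97% of macrophage-like cells, or 4.98% and 3.15% after thinning. Ifitm3 was spread out in the same cells, with 7.34% and 6.42% of its UMIs in the top 1% of cells. The interval above treats UMIs as independent and so understates the error of Ifitm1 here. The cells rich in Ifitm1 were deep, with medians of 19490 and 15870 UMIs. Their summed granulocyte markers were 1253 and 2264 CPM, against 212 and 90.1 in the remaining macrophage-like cells. Over all macrophage-like cells that sum was 259 and 128, with all 7 markers detected in both libraries, and the cDC2 sum was 162 and 178. Among the 454 and 868 macrophage-like cells without a UMI of either list, Ifitm1 was at 45.0 and 45.6 CPM, a log2 ratio of 0.02 (-0.31 to 0.35). Those cells were shallower, with medians of 4676 and 3898 UMIs.

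**Figure D3:**
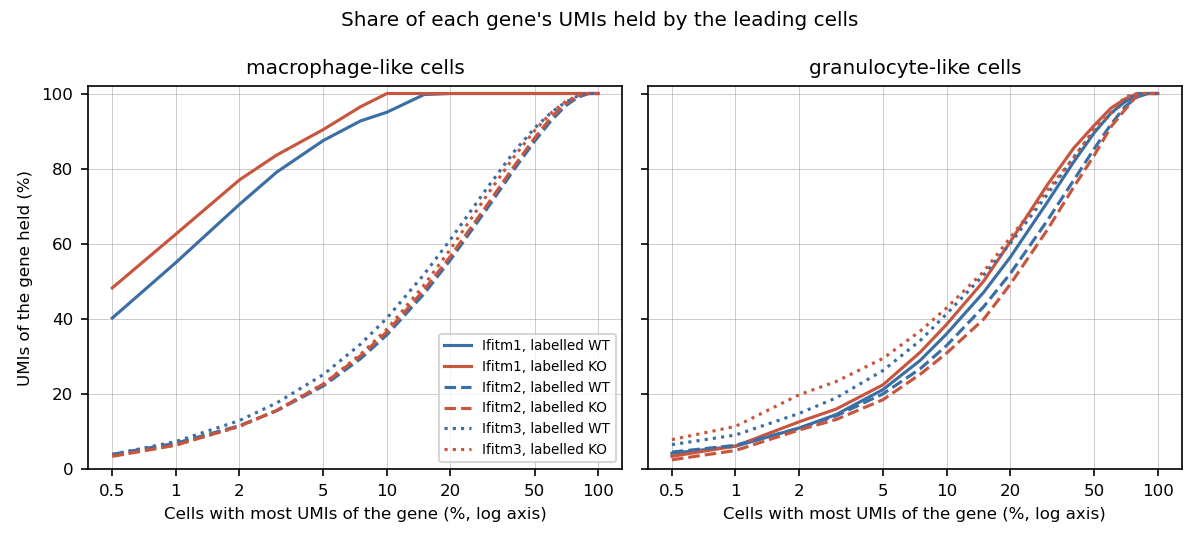
Percent of the UMIs of Ifitm1 (solid), Ifitm2 (dashed) and Ifitm3 (dotted) held (y axis) by the given percent of cells with most UMIs of that gene (x axis, log scale), in macrophage-like (left) and granulocyte-like cells (right) of the library labelled WT (blue) and the library labelled KO (red). In macrophage-like cells the top 1% of cells hold 55.0% and 62.6% of Ifitm1 UMIs but 7.34% and 6.42% of Ifitm3 UMIs, while the granulocyte-like curves run close together.

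A few cells also carried much of the Ifitm1 in other classes, to differing degrees. In cDC1-like cells, 9 of 113 cells held 366 of 400 UMIs in the library labelled WT, and 2 of 88 held 118 of 130 in that labelled KO, 94 of them in 1 cell, so the log2 ratio of -1.25 rests largely on 9 and 2 cells. It was -2.003 after thinning, -1.87 as the mean of per-cell levels and -2.64 without the top cell of each library. The granulocyte markers in cDC1-like cells summed to 61.2 and 14.9 CPM, with 2 and 4 of the 7 at 0. In monocyte-like cells, at 104 and 49.1 CPM (-1.08, -1.30 to -0.85), 8 of 666 cells held 178 of 313 UMIs and 3 of 1833 held 62 of 334. The other 658 and 1830 monocyte-like cells, each with fewer than 10 Ifitm1 UMIs, stood at 45.8 and 40.2 CPM. Without cells that had granulocyte or cDC2 marker UMIs, the monocyte-like levels were 101.6 and 41.2, a log2 ratio of -1.30. The melanoma-like cells had 41 and 11 Ifitm1 UMIs, 14 of the 41 in 1 cell, beside 293 and 27 UMIs of the granulocyte gene S100a9. The part of these markers in the differences was not tested. For each S100a9 UMI there were 0.0802 and 0.0617 Ifitm1 UMIs in granulocyte-like cells, 0.140 and 0.407 in the melanoma-like class, and 0.844 and 3.18 among T-like cells, where 1 cell labelled KO held 42 of 124 Ifitm1 UMIs.

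Ifitm2 differed less, and in 1 direction. The interval of its log2 ratio lay below 0 in 7 of 9 classes with enough UMIs and above 0 in none, although after thinning the ratio was above 0 in T-like (0.12) and mature DC-like cells (0.039). The ratio was -0.15 (-0.18 to -0.11) in macrophage-like cells, -0.30 (-0.35 to -0.24) in monocyte-like cells, -0.36 (-0.49 to -0.23) in granulocyte-like cells and -0.14 in cDC2-like cells. In cDC1-like cells, Ifitm2 was at 747 and 422 CPM, a log2 ratio of -0.82 (-0.99 to -0.66), with 976 and 426 UMIs, and the ratio was -0.42 in classes taken from Leiden clusters, which is within 1.5-fold. The median cDC1-like cell had 4.605 and 2.59 Ifitm2 UMIs per 10000, and the most any cell held was 46 and 29. In NK-like cells it stood at 85.6 and 40.7 on 13 UMIs in each library, with an interval that covers 0, and without the top cell of each library its ratio was -0.23. In granulocyte-like cells the stricter cell filter gave -0.65.

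Ifitm6 was at 371 and 265 CPM in granulocyte-like cells (-0.48, -0.85 to -0.13), on 303 and 82 UMIs, but the ratio was -0.0013 after thinning and 0.14 in those without a Retnlg UMI. It stood at 298 and 263 CPM in monocyte-like cells (-0.18, -0.30 to -0.06). In macrophage-like cells it was 19.98 and 24.2 (0.28, 0.08 to 0.48), but -0.05 with 5 bins of these cells weighted equally. The only Ifitm6 pair past 1.5-fold was in melanoma-like cells, on 13 and 7 UMIs, at 2.18 and 0.95 CPM. Ifitm10 gave -0.02 (-0.61 to 0.57) in T-like cells and 0.22 (-0.57 to 1.02) in macrophage-like cells, so the former interval still holds a 1.5-fold change in the lower direction and the latter one in the higher.

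Macrophage-like and monocyte-like cells of a tumour form a continuum, as monocytes enter and mature. These cells and those between the 2 gates were therefore ordered by the difference of their macrophage and monocyte marker scores and split into 5 bins of equal cell number over both libraries. Ifitm3 was 4291 CPM in the most monocyte-like bin and 761 in the most macrophage-like bin of the library labelled WT, and 4480 and 926 in that labelled KO. The first bin held 357 and 1002 cells and the last 714 and 645. From the monocyte end, the log2 ratios of the libraries were 0.06, 0.10, 0.35, 0.29 and 0.28. Ifitm3 was thus higher in the library labelled KO in all 5 bins, and more so in the 3 nearer to macrophages. Ly6c2, a monocyte gene among those that set the order, still differed within bins, with log2 ratios of 0.13, 0.49, 0.83, 0.64 and 0.32, and the macrophage gene C1qa gave -0.25, -0.08, 0.13, 0.16 and 0.17.

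**Figure D4:**
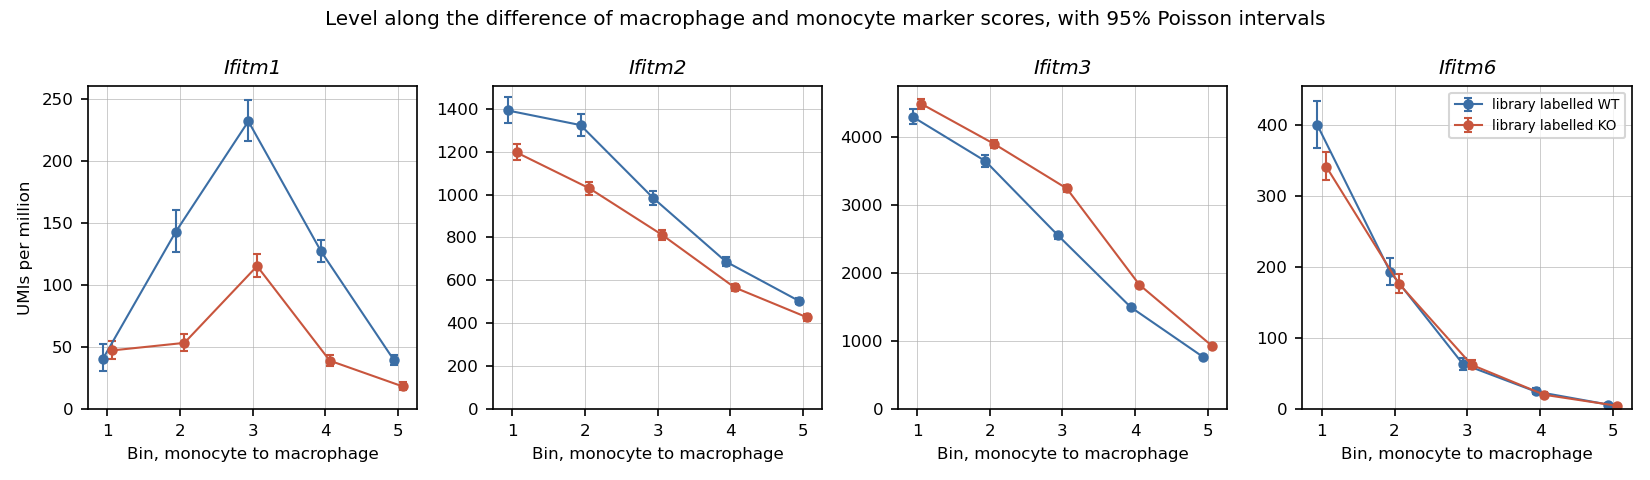
CPM, UMIs per 1000000 UMIs of the class (y axis) of Ifitm1, Ifitm2, Ifitm3 and Ifitm6 in 5 bins of macrophage-like, monocyte-like and intermediate cells (x axis, from most monocyte-like to most macrophage-like) in the library labelled WT (blue) and the library labelled KO (red), with 95% Poisson intervals for counting error. Ifitm2, Ifitm3 and Ifitm6 are lower in each bin toward macrophages, while Ifitm1 peaks in bin 3 at 232 and 115.

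Ifitm2 was lower in the library labelled KO in all 5 bins, with log2 ratios from -0.36 to -0.22. Ifitm6 had 400 and 341 CPM in the first bin and 6.36 and 4.65 in the last, and its interval lay below 0 in the first bin alone. Ifitm1 behaved otherwise. It was 40.6 and 47.2 CPM in the first bin, peaked at 232 and 115 in bin 3 and was 39.6 and 18.3 in the last, with log2 ratios of 0.22, -1.42, -1.01, -1.70 and -1.11.

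The other interferon-induced antiviral genes were read from a list of 27 genes without any Ifitm gene, of which all but Mx2 were in the file. In macrophage-like cells 17 reached 50 CPM, and 9 of these were higher past 1.5-fold and none lower, with a median log2 ratio of 0.66 against 0.01 for all genes tested, of which 1.2% were higher past the fold. In monocyte-like cells 14 of 24 were higher and none lower (0.70 against 0.03), beside 3.66% of all genes. In granulocyte-like cells 3 of 21 were higher and none lower (0.23 against 0.13), a share near the 16.1% of all genes. The 3 highest ratios in macrophage-like cells were Oasl1 (1.10), an interferon-induced relative of the oligoadenylate synthetases, Irf7 (1.04), a transcription factor of the interferon response, and Rsad2 (1.04), which encodes the antiviral enzyme viperin. The 3 lowest were Apobec3 (0.09), a cytidine deaminase that acts on retroviruses, Eif2ak2 (0.13), a kinase that double-stranded RNA activates, and Bst2 (0.25), which tethers budding virus. In monocyte-like cells Ifit2 (1.51), Ifi44 (1.41 on 9 and 54 UMIs) and Rsad2 (1.40) were highest, and Apobec3 (0.24), Samhd1 (0.40) and Ifi27l2a (0.45) lowest. In granulocyte-like cells Dhx58 (1.05 on 14 and 11 UMIs), Bst2 (0.82) and Apobec3 (0.68) were highest, and Eif2ak2 (-0.77 on 36 and 8 UMIs), Usp18 (-0.38) and Trim30a (-0.38) lowest. In cDC2-like cells 11 of 20 genes were higher and in cDC1-like cells 8 of 13, beside 3.13% and 4.4% of all genes, and none was lower in either. The counts were 2 of 8 in T-like, 5 of 14 in mature DC-like and 5 of 12 in plasmacytoid DC-like cells, with none lower. Of all genes, 1.01%, 5.33% and 13.2% were higher in these classes. NK-like cells had 3 higher and 2 lower of 12, and B-like cells 3 higher and 1 lower of 7, where many genes of any kind passed the fold. Among melanoma-like cells 1 of the 3 genes that reached 50 CPM was higher, beside 1.53% of all genes.

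Of the interferon receptors and their signalling genes, 0 of 9 were past the fold in either direction in macrophage-like cells, where 1.2% and 0.319% of all genes were, and the list of 11 ran from -0.13 for Ifnar2, a subunit of the type I interferon receptor, to 0.43 for Stat2. In monocyte-like cells 1 of 10 was higher, Stat2 (0.64), and in granulocyte-like cells 2 of 10 were lower, Ifnar1 (-0.98 on 78 and 15 UMIs) and Jak2 (-0.70 on 99 and 23), genes named after their values were seen. Of all genes, 3.66% were higher in monocyte-like cells and 7.34% lower in granulocyte-like cells. NK-like cells had 1 higher and 3 lower of 9, B-like cells 2 higher and 1 lower of 9, and plasmacytoid DC-like cells 1 higher of 9, and in each of the other 5 classes none passed. The list of genes that process or bind IFITM proteins gave 0 of 4 past the fold in macrophage-like cells, from -0.26 for Cd81, a tetraspanin, to 0.39 for Nedd4, a ubiquitin ligase with 76 and 98 UMIs. In B-like cells 3 of 4 of these were higher, in plasmacytoid DC-like cells 2 of 4 lower and in NK-like cells 1 of 6 higher and 1 lower, and in each of the other 7 classes none passed. Of all genes, 23.8% were higher and 15.7% lower in B-like cells. The shares were 13.2% and 12% in plasmacytoid DC-like cells and 15.4% and 15.6% in NK-like cells.

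Within each library, Ifitm3 was highest in the cells with most antiviral RNA, while Ifitm1 in granulocyte-like cells was not. The cells of a class were split into 3 groups by their summed antiviral UMIs per 10000, with the limits set over both libraries. Abundant genes weigh most in this sum, above all Ifi27l2a. It stood at 1582 and 2501 CPM in macrophage-like cells, where Bst2 came next at 627 and 744. In monocyte-like cells it stood at 3078 and 4200, and Samhd1 came next at 922 and 1215. In macrophage-like cells labelled WT, Ifitm3 was at 623, 1229 and 2828 CPM from the lowest to the highest group, and in those labelled KO at 658, 1313 and 3153. Within these groups the libraries were closer than over the class, with log2 ratios of 0.08, 0.09 and 0.16 against 0.52. The groups do not make the antiviral levels equal, and the part of those levels in the difference was not tested. The highest group held 23.6% of macrophage-like cells in the library labelled WT and 40.8% in that labelled KO, with a median of 82.0 and 97.4 antiviral UMIs per 10000. Ifitm2 was also higher in each higher group, from 495 to 925 labelled WT and from 402 to 753 labelled KO, and its log2 ratio was -0.30, -0.31 and -0.30.

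**Figure D5:**
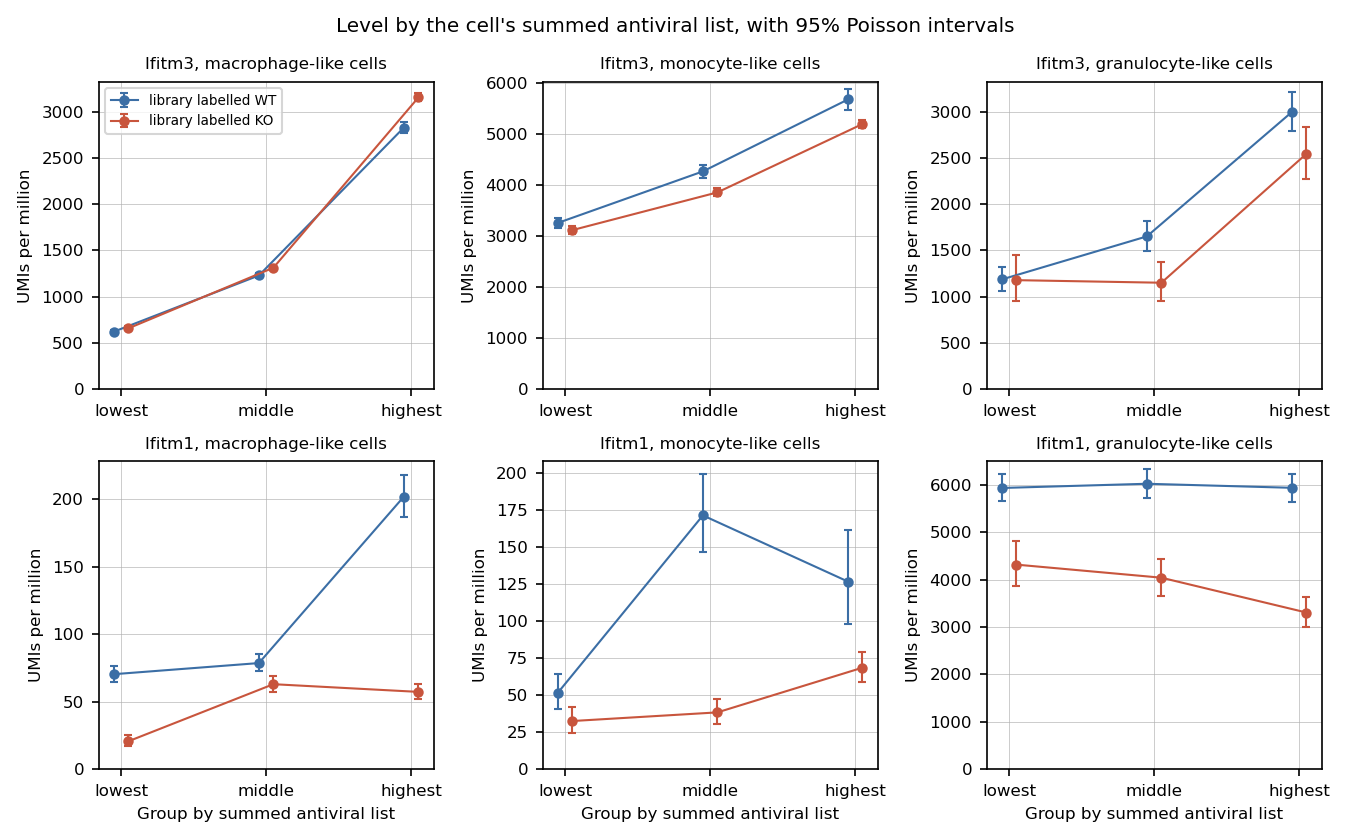
CPM, UMIs per 1000000 UMIs of the class (y axis) of Ifitm3 (top) and Ifitm1 (bottom) in the lowest, middle and highest of 3 groups of cells by their summed antiviral genes (x axis), in macrophage-like, monocyte-like and granulocyte-like cells of the library labelled WT (blue) and the library labelled KO (red), with 95% Poisson intervals for counting error. Ifitm3 is highest in the highest group in all 6 lines, and Ifitm1 in granulocyte-like cells labelled WT stays between 5932 and 6021.

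In monocyte-like cells, Ifitm3 stood at 3255, 4263 and 5670 CPM labelled WT and 3114, 3853 and 5189 labelled KO. Within these groups it was therefore lower in the library labelled KO, with log2 ratios of -0.06, -0.15 and -0.13, although the class as a whole gave 0.08. The highest group held 18.0% and 38.9% of these cells. In granulocyte-like cells, Ifitm3 was 1187, 1652 and 2996 labelled WT and 1179, 1151 and 2544 labelled KO. Ifitm1 in the same cells labelled WT was level, at 5932, 6021 and 5935, and labelled KO it was 4314, 4039 and 3304. Its log2 ratio was -0.46, -0.58 and -0.85, so it was lower in the library labelled KO in each group. In macrophage-like cells the ratios of Ifitm1 were -1.77, -0.32 and -1.82.

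Over all kept cells of a library, the members' levels also reflect which cells were caught, and fewer cells of a class and fewer UMIs in each cannot be told apart in such a sum. Ifitm1 stood at 306 and 159 CPM, a log2 ratio of -0.94. With the class shares of the library labelled WT and the levels of that labelled KO, the log2 ratio was -0.50, and with levels held and shares exchanged it was -0.48. Granulocyte-like cells gave 37.9% of the Ifitm1 UMIs but 1.95% of all UMIs labelled WT, and 15.6% and 0.654% labelled KO, where cDC2-like cells held the larger part at 33.2%. Ifitm3 was 1373 and 1980 CPM, a log2 ratio of 0.53, of which the levels alone gave 0.41 and the shares alone 0.17. Ifitm6 was 52.1 and 62.1, a log2 ratio of 0.25 for which the levels alone gave -0.09 and the shares alone 0.36. Monocyte-like cells were 12.3% and 24.0% of the kept cells and gave 41.2% and 60.9% of Ifitm6 UMIs. Ifitm2 gave -0.18 and Ifitm10 -0.05.

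Finally, the class pattern of each member was set beside that of 6402 other genes. The measure was Pearson's r of log2 levels over 22 points, the 11 classes in each library, which share libraries and depth, so that r is a description. For Ifitm1 the most alike genes were Il1r2 (0.88), a decoy receptor of interleukin-1, S100a11 (0.88) and Lilra6 (0.87). Snx10 (0.94), Ifitm3 (0.92) and App (0.92) were nearest to Ifitm2, and Ifitm2 (0.92), App (0.92) and Ifitm6 (0.90) to Ifitm3. The Ifitm6 pattern was nearest to Gm9733 (0.97), Sirpb1c (0.96) and Pi16 (0.95), and the Ifitm10 pattern to Il18r1 (0.92), a receptor subunit for interleukin-18, Gm33104 (0.92) and Ctla2a (0.92). Among the 4 clustered members r ran from 0.67 to 0.92, and that of Ifitm10 with the others from -0.04 to 0.13.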

How the data were processed

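Live CD45+ cells of B16 tumours were profiled with the 10x Genomics 3' v3 chemistry, and Cell Ranger 4.0.0, per the file headers, aligned the reads to mm10. The authors deposited raw UMI counts of 31053 genes for both libraries in 1 matrix without normalisation, and whether reads were subsampled on joining is not given in the sources used here. Cells with at least 200 genes and at most 10% mitochondrial UMIs were kept, after the study's methods. The highest Scrublet scores, 0.8% per 1000 cells, were removed from each library, 256 and 532 cells (scanpy 1.11.5).

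A cell entered a class when the mean scaled score of its marker list was at least 0.2 and at least 0.05 above the next and it had at least 3 marker UMIs. Cells with a second lineage at 0.25 or more were set aside. For plasmacytoid DC-like cells, the cDC1, cDC2, B, plasma cell and endothelial scores were left out of this rule. These thresholds were set after seeing the data. Raw UMIs were summed per library and class with numpy 2.4.6 and pandas 2.3.3, and intervals came from scipy 1.17.1. Ratios over all genes carried a pseudocount of 1 count per 1000000 UMIs and left out mitochondrial, ribosomal protein and haemoglobin genes. The ratio and interval code was tested on simulated counts. Alternatives changed the cell filter, depth, weights, classes (leidenalg 0.10.2), scaling, doublets and gates.

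The members and gene lists were chosen with earlier results of these data known. All 5 members were described in every class. Of the antiviral list, the 3 highest and 3 lowest ratios were named in macrophage-like, monocyte-like and granulocyte-like cells, of the other lists the highest and lowest in macrophage-like cells, and for each member the 3 genes most alike. Gene models came from GENCODE M21 and promoters from RefSeq.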

Additional observations from a re-analysis of the deposited data

Results flagged for a closer look

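The log2 ratio of Ifitm3, library labelled KO over library labelled WT, was 0.63 in melanoma-like cells and -0.15 in granulocyte-like cells. These values are of opposite sign with intervals that do not include 0. In classes taken from Leiden clusters they were 0.66 and 0.50, both above 0, so the opposite sign depends on how the classes were made. With 1 library per genotype the difference between the classes was not tested. Granulocyte-like cells had a median depth of 1328 and 1040 UMIs and melanoma-like cells one of 47000 and 35427.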

How the results depend on the processing

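No paired analysis was possible because each genotype had 1 library and no test was run. Values are log2 ratios, library labelled KO over library labelled WT. For Ifitm1 in granulocyte-like cells (-0.65), the ratio was -0.83 with at least 500 genes and at most 5% mitochondrial UMIs, -0.82 after thinning to 1000 UMIs, -0.49 as the mean of per-cell levels, -0.33 in Leiden cluster classes and -0.78 when centred on the median of all genes. For Ifitm1 in macrophage-like cells (-0.97), Leiden classes gave -0.37. Both alternatives chosen after seeing the data moved it, to -1.24 with 5 bins within the gate weighted equally and to 0.017, a change of sign, in cells without granulocyte or cDC2 marker UMIs. For Ifitm1 in monocyte-like cells (-1.08), thinning gave -1.45 and doublets kept -0.66, and for Ifitm1 in cDC1-like cells (-1.25) Leiden classes gave 0.094, also a change of sign, while thinning gave -2.003, per-cell means -1.87 and leaving out the top cell of each library -2.64. Ifitm3 in macrophage-like cells (0.52) was 0.54 after thinning and with doublets kept, 0.47 as the mean of per-cell levels, 0.33 in cells without those markers and 0.29 with 5 bins. The causes were not tested.

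The count of 2 pairs higher in the library labelled KO became 1 with the stricter cell filter, after thinning and with the stricter gate, 4 with per-cell means, 5 with Leiden classes and 6 with no minimum UMI count. The count of 8 pairs lower became 15 with no minimum. With the class shares of the library labelled WT, the ratios over all cells were -0.50 for Ifitm1 and 0.41 for Ifitm3. Of the 37 ratios of pairs, 24 moved by less than their counting interval with Leiden classes, and 7 changed sign. These were Ifitm1 in cDC1-like and T-like cells (-0.26 to 0.58), Ifitm2 in T-like (-0.20 to 0.0039), Ifitm3 in granulocyte-like (-0.15 to 0.50), monocyte-like (0.08 to -0.0059) and plasmacytoid DC-like cells (0.20 to -0.48), and Ifitm10 in T-like cells (-0.018 to 0.018). Thinning and per-cell means changed the sign of 6 ratios each and the stricter gate that of 0. With the stricter gate 36 of 37 stayed within it, and 35 of 37 without the cell that held most UMIs in each library. After thinning 3 pairs gave no value, and of 34 ratios 19 stayed within their interval. Calls past 1.5-fold were also lost for Ifitm3 in melanoma-like cells with doublets kept (0.52) and in B-like cells with the stricter cell filter (0.54), and for Ifitm2 in cDC1-like cells with Leiden classes (-0.42) and in NK-like cells after thinning (-0.38), with doublets kept (-0.56) and without the top cells (-0.23). Ifitm1 in granulocyte-like cells was also within 1.5-fold with per-cell means (-0.49), as it was with Leiden classes (-0.33). Depth limits Ifitm10 in all classes and each member in B-like, NK-like and plasmacytoid DC-like cells.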

Other observations

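Members were also seen together in single cells. After thinning to 1000 UMIs, 49.3% of macrophage-like cells labelled WT with an Ifitm3 UMI had an Ifitm2 UMI, against 35.4% of those without one, and in the library labelled KO the shares were 44.1% and 30.7%. In cDC2-like cells Ifitm1 was found in 46.6% of cells with Ifitm3 and 20% of the 30 without it labelled WT, and in 44.7% and 30.4% labelled KO. In granulocyte-like cells labelled KO the share with Ifitm1 was 71.0% with and without Ifitm3, while in those labelled WT it was 86.9% and 73.7%. These shares compare cells of 1 library and were not tested.

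Some gates held too few cells for a class. Cells with basophil or mast cell markers numbered 6 in the library labelled WT and 5 in that labelled KO, with 69 and 98 Ifitm1 UMIs, 6919 and 8190 counts per 1000000 UMIs (CPM), 33 and 58 of them in 1 cell each, and no Ifitm6 UMI. The 9 and 7 fibroblast marker cells had Ifitm3 at 3095 and 2440 CPM and Ifitm2 at 1391 and 881. The 3 and 4 endothelial marker cells had Ifitm3 at 5082 and 7717 CPM, on 59 and 88 UMIs.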
